A study of Mus musculus with 4 samples.

Results

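The CCN family genes Ccn1 to Ccn5 were examined in single cells from intervertebral discs of the mouse tail, which are pads of fibrocartilage that join the vertebrae. The members were the genes with these symbols in the deposited count tables, 5 of 32285 genes, and each symbol stood on 1 row. The remaining family gene, Ccn6, had 6 UMIs (distinct transcript molecules) in 5 of 3846 cells and was not followed further. All 4 libraries came from wildtype female C57BL/6 mice aged 12 weeks. The 2 injured libraries held discs sampled 7 days after needle puncture from both sides with a 30G needle, and the 2 control libraries held unpunctured discs, with 1 library of each group in each of 2 rounds. Discs of 6 mice, 30 discs in all, were pooled per group, and the labels do not say whether that holds for each round. Control discs lay at more distal tail levels of the animals whose proximal discs were punctured, so tail level and puncture cannot be told apart. The cells had been frozen, thawed and sorted for viability before capture.

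CCN proteins are secreted matricellular proteins, which signal from the extracellular matrix rather than build it. They bind integrins, proteoglycans and growth factors of the TGF-beta, BMP and WNT families. Ccn1 (formerly Cyr61) and Ccn2 (formerly Ctgf) are among the best known target genes of the YAP and TAZ coactivators, which act with TEAD factors, and both also respond quickly to serum, stretch and TGF-beta. Ccn3 (formerly Nov) often opposes Ccn2 in matrix production. Ccn4 and Ccn5 (formerly Wisp1 and Wisp2) were found as WNT-induced genes, and Ccn5 lacks the C-terminal cystine knot domain of the other members. In cartilage, Ccn2 is known for its part in chondrocyte maturation and in the making of aggrecan matrix.

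In the GENCODE annotation of the mm10 (GRCm38) build each member has at most 5 exons in a transcript. Ccn1 (ENSMUSG00000028195) lies on the minus strand at chr3:145646976-145649981. Ccn2 (ENSMUSG00000019997) lies on the plus strand at chr10:24595442-24598683 and overlaps the gene model Gm15270, so reads in the overlap are uncertain. Ccn3 (ENSMUSG00000037362, chr15:54745702-54754039) and Ccn4 (ENSMUSG00000005124, chr15:66891320-66923201) are on the plus strand of the same chromosome. Ccn5 (ENSMUSG00000027656) is on the plus strand at chr2:163820861-163833146. Of the 5 members, 1 matched the RefSeq promoter table of build GRCm38.p6, and its 250 bases before the start, chr3:145649986-145650235 on the minus strand, are shown because Ccn1 differed between the rounds within clusters and because TEAD factors are its best known regulators. Capitals mark, in order, a CATTCC match (the TEAD motif), a CGTCA match (the core of a cAMP response element) and a TATAAA match.
Ccn1: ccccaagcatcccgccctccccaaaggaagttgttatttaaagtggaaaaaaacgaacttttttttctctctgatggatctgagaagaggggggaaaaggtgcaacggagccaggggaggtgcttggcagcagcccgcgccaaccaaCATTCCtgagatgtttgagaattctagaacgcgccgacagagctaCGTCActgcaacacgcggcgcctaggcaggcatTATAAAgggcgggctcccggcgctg
Both strands were searched, the matches do not overlap, and they begin 103, 58 and 25 bases upstream of the start. Among 32851 mouse promoters of the same length, 12.6% held CATTCC, 17.8% held CGTCA and 12.4% held TATAAA. The AP-1 motif TGANTCA had no match in this window and was present in 6.75% of promoters. These matches describe letters only.

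Libraries held between 378 and 1834 cells, taken as barcodes with at least 250 detected genes, and between 1114210 and 16972879 UMIs in all. Depth per cell moved with the groups: medians were 1061.5 and 836 UMIs in control against 7033.5 and 4635 in injured cells. The round 1 libraries shared barcodes. Of 378 control round 1 cells, 159 had a barcode with at least 0.3 times as many UMIs in the injured round 1 library, and 104 of these had over 3 times as many there. Levels of round 1 are therefore also given without shared barcodes where the text turns on them. Markers of disc tissue were present: all 18 cartilage markers had UMIs in all 4 libraries, and 17 or 18 of 18 fibroblast markers did.

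Cells fell into 18 clusters when Ccn genes were kept out of the clustering. The inner annulus or cartilage-like class (218, 259, 496 and 1084 cells in control round 1, control round 2, injured round 1 and injured round 2) combined 5 clusters, led by Saa1 and Lcn2, by Cxcl1, Mmp3 and Nos2, by Fmod and Comp, by Grem1 and Ucma, and by Wif1 and Chrdl2. The outer annulus or fibroblast-like class (22, 56, 41 and 472 cells in the same order) combined 3, led by Postn and Cthrc1, by Myoc and Angptl7, and by Aspn and Tubb5 at low UMIs. Other named clusters were nucleus pulposus-like, the cells of the gel-like disc core (Car3 and T), macrophage or monocyte-like, endothelial-like and mural-like. Different clusters filled the classes in different libraries. In the outer class, the Myoc and Angptl7 cluster held 63.6% and 76.8% of control cells, and the Postn and Cthrc1 cluster held 39.0% and 66.1% of injured cells. The largest outer cluster of injured round 1 was that of Aspn and Tubb5, with 48.8% of cells. In the inner class, the leading clusters were Wif1 and Chrdl2 (46.3%) in control round 1, Grem1 and Ucma (79.9%) in control round 2, Cxcl1, Mmp3 and Nos2 (75.6%) in injured round 1, and Saa1 and Lcn2 (60.0%) in injured round 2.

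Levels are UMIs of a gene divided by all UMIs of the summed cells and scaled to a total of 1000000 (CPM), with exact Poisson 95% intervals, and shares carry exact Clopper-Pearson intervals. Both cover counting error only. They are compared between cell groups and libraries for 1 gene at a time, never between genes. As a background for free RNA, the same levels were taken in barcodes with under 100 UMIs, which were listed for 3 libraries and not for control round 1.

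Ccn2 was higher in both annulus classes than in macrophage or monocyte-like cells, where it lay below the low-UMI barcodes. Over all cells it had 22289 UMIs in 1850 of 3846 cells. In the inner class its level was 1549 CPM in control round 1, 575 in control round 2, 1489 in injured round 1 and 1390.4 in injured round 2. Control round 2 stood apart from the other libraries, and without shared barcodes control round 1 was at 1616. The outer class had 1114, 659.5, 571 and 375 CPM in the same order, below the inner class in 3 of 4 libraries and above it in control round 2. In macrophage or monocyte-like cells Ccn2 was at 28.1 and 27.6 CPM in the injured libraries, against 168 and 161 CPM in the low-UMI barcodes of those libraries. Nucleus pulposus-like cells had 255 CPM in control round 1 and 9.20 CPM, from 1 UMI, in control round 2. Endothelial-like cells of injured round 1 had 146 CPM, no more than the low-UMI barcodes.

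Within the annulus, Ccn2 separated the clusters further. In injured round 2 it was at 1769.5 CPM (1616 to 1934) in the Myoc and Angptl7 cluster and at 238 CPM (219.5 to 257) in the Postn and Cthrc1 cluster, both of the outer class. In the same library it was at 1584 CPM in the Fmod and Comp cluster, 1298 in the Saa1 and Lcn2 cluster, 952 in the Grem1 and Ucma cluster and 684 in the Wif1 and Chrdl2 cluster, all of the inner class. The order was not fixed across libraries: the Wif1 and Chrdl2 cluster had 1657 CPM in control round 1, and the Grem1 and Ucma cluster had 351 CPM in control round 2. The Cxcl1, Mmp3 and Nos2 cluster was at 1562 CPM in injured round 1 and 1595 in control round 1, but 78 of its 80 control cells there had shared barcodes.

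Ccn1, which encodes an integrin ligand of endothelial cells and fibroblasts, differed between the rounds in inner annulus cells. In the inner class it was at 53.1 and 153 CPM in control rounds 1 and 2 and at 28.5 and 273 CPM in injured rounds 1 and 2, so both libraries of round 2 lay above both of round 1. Ccn5 had the same order by round, as did 22.2% of the 10794 genes tested in these cells. Ccn2 and Ccn3 had the opposite order, as did 22.6% of these genes. Of 20 immediate early and dissociation genes, which respond quickly to tissue handling, 13 had the order of Ccn1 and 1 had the opposite order. Fos, Nr4a1 and Egr1 are named as examples after their values were seen. In control round 1, control round 2, injured round 1 and injured round 2, Fos was at 259, 1637, 68.2 and 691 CPM, Nr4a1 at 115, 599, 21.1 and 266 CPM, and Egr1 at 561, 1345, 107 and 694 CPM. Their part in the Ccn1 values was not tested. The injured round 1 value was close to the 25.4 CPM of its low-UMI barcodes. Part of that low level came with 1 cluster: the Cxcl1, Mmp3 and Nos2 cells were at 13.8 CPM. The injured libraries also differed within clusters. Fmod and Comp cells had 146 CPM in injured round 1 and 384 CPM in injured round 2, a ratio of 2.64 (counting interval 2.09 to 3.37), while their Ccn2 ratio was 1.14 (1.05 to 1.23). Saa1 and Lcn2 cells had 89.4 and 213 CPM of Ccn1, a ratio of 2.39 (1.46 to 4.19). Outer class levels were closer together, at 186, 212, 120.4 and 197 CPM in control round 1, control round 2, injured round 1 and injured round 2. In injured round 1, 1 cell held 18 of the 35 Ccn1 UMIs, and without it the level was 64.2 CPM. Both round 2 libraries lay above both of round 1 in this class too, as for 12.5% of the 4784 genes tested. Of the 20 immediate early and dissociation genes, 1 had that order there and 4 had the opposite order.

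A high Ccn1 level in nucleus pulposus-like cells, whose cluster had medians of 319 genes and 46.0% mitochondrial UMIs per cell, rested on single cells. It was 1069.8 CPM in control round 1, from 67 UMIs in 3 of 29 cells, of which 1 cell held 46, and without that cell it was 376 CPM. In control round 2 it was 110.4 CPM, from 12 UMIs in 8 of 71 cells. Injured libraries had 5 and 1 such cells, too few for a level.

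Ccn3 was higher in outer than in inner annulus cells. In control round 1, control round 2, injured round 1 and injured round 2 it was at 546, 299, 196 and 93.6 CPM there, and at 50.5, 29.1, 53.8 and 27.6 CPM in the inner class. The outer class was above the inner class in all 4 libraries. In the few control cells of the Postn and Cthrc1 cluster the levels were 1236 CPM (5 cells) and 2113 CPM (3 cells), and in 43 Myoc and Angptl7 cells of control round 2 the level was 191 CPM. Endothelial-like cells of injured round 1 had 75.8 CPM against 14.3 CPM in low-UMI barcodes, from 13 UMIs in 2 of 34 cells. No Ccn3 UMI was seen in macrophage or monocyte-like cells, where a limit of 3 counts gives 16.8 and 10.4 CPM and the exact Poisson interval reaches 20.7 and 12.7 CPM in injured rounds 1 and 2.

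Ccn5 was also highest in the outer class after injury. Its outer class levels were 21.8, 42.4, 86.0 and 203 CPM in control round 1, control round 2, injured round 1 and injured round 2. Most of the last value came from the Postn and Cthrc1 cluster at 228 CPM, where 56.4% of 312 cells had a UMI, while the Myoc and Angptl7 cluster of the same library was at 29.1 CPM. In the inner class Ccn5 was at 19.0, 41.8, 4.47 and 20.5 CPM, and the injured values lay at or below the 9.76 and 20.7 CPM of low-UMI barcodes of those libraries. Control round 2 was above its 6.82 CPM background, mainly in Grem1 and Ucma cells (53.2 CPM). Another local peak was 192 CPM (122 to 288) in 32 Wif1 and Chrdl2 cells of injured round 2, where injured round 1 had 3.04 CPM in 39 cells. Macrophage or monocyte-like cells had no Ccn5 UMI.

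Ccn4, a WNT-induced gene known from bone and cartilage-forming cells, was sparse in every group. The inner class was at 25.3, 11.9, 44.2 and 28.3 CPM in control round 1, control round 2, injured round 1 and injured round 2, above the low-UMI barcodes of the last 3 libraries (3.30, 17.6 and 6.55 CPM). The outer class had 1, 1, 6 and 220 UMIs, or 10.9, 2.65, 20.6 and 71.7 CPM. Its 220 UMIs of injured round 2 included 207 in the Postn and Cthrc1 cluster (78.2 CPM). Grem1 and Ucma cells had 3 UMIs in control round 2 and none in injured round 2.

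**Figure D1:**
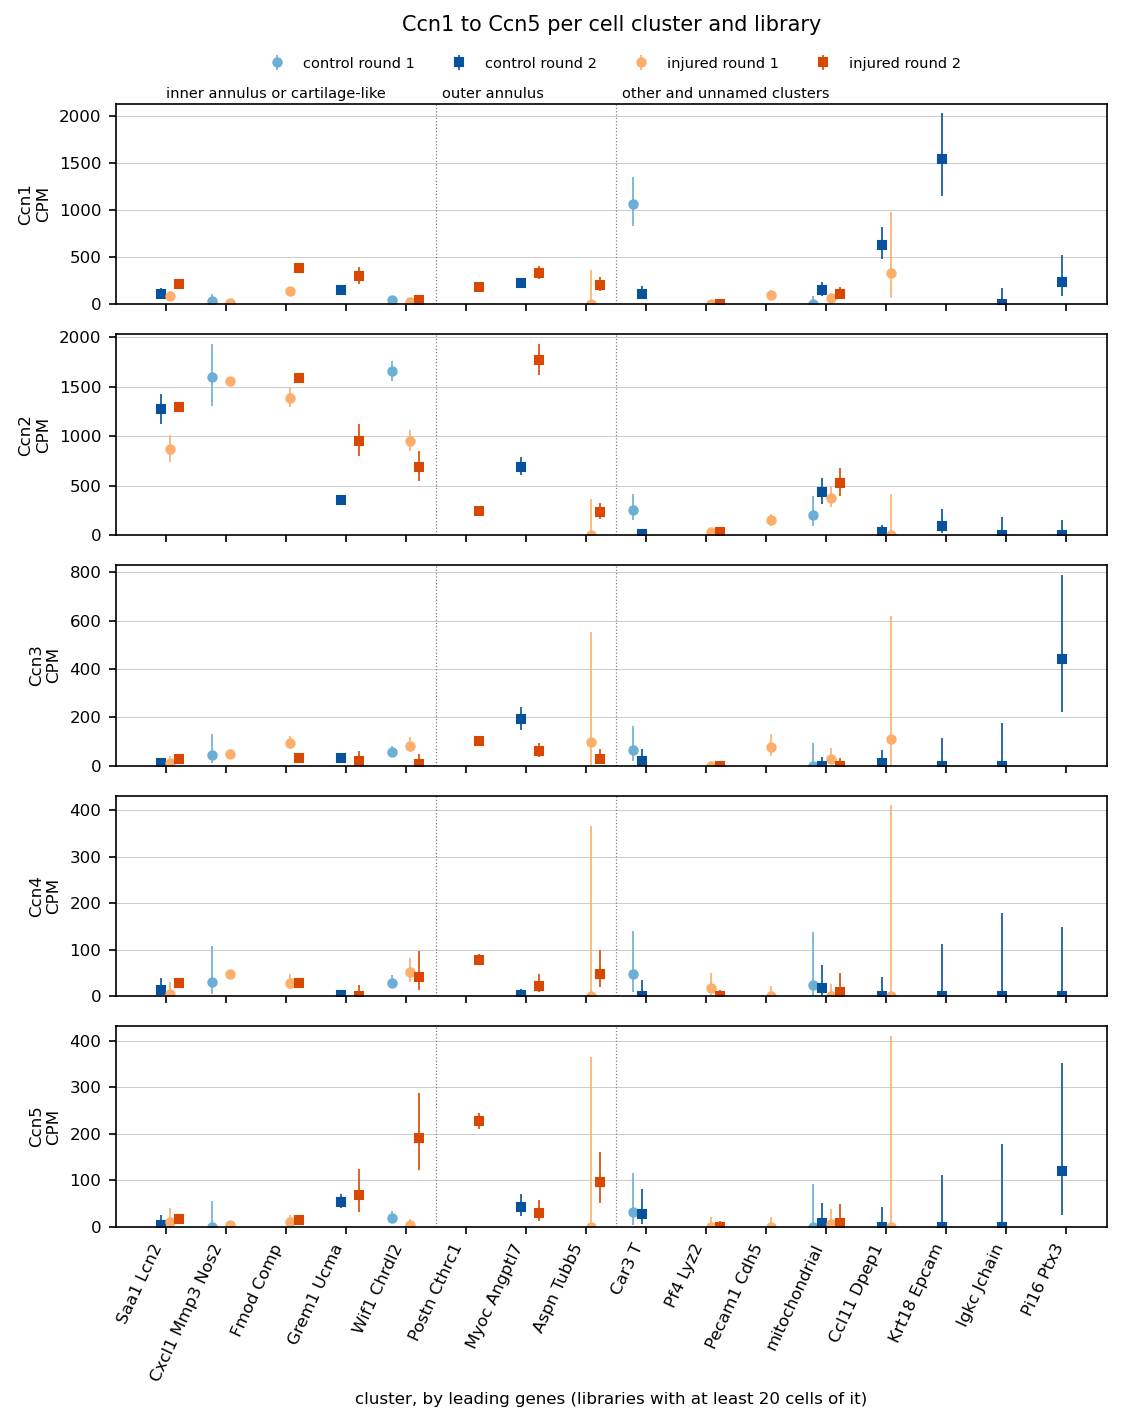
Level of each Ccn gene (CPM, y axis, one panel per gene with its own linear scale) in each cluster (x axis, by leading genes), for libraries with at least 20 cells of it; points are libraries and bars exact Poisson 95% intervals. Ccn2 is at 1769.5 CPM in Myoc and Angptl7 cells and 238 CPM in Postn and Cthrc1 cells of injured round 2, with Grem1 and Ucma cells of control round 2 at 351 CPM, and Ccn5 is high in Postn and Cthrc1 cells (228 CPM).

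Shares of cells with a UMI were compared after every cell was thinned to 1000 UMIs, leaving out shallower cells. For Ccn2 in the inner class the shares were 41.5% of 135 cells in control round 1 (83 shallower cells left out), 26.3% of 236 in control round 2 (23 left out), 58.0% of 490 in injured round 1 (6 left out) and 50.0% of 1059 in injured round 2 (25 left out). Both injured shares lay above both control shares, and how often other genes had this order of shares was not tested. The Ccn2 levels of this class overlapped between groups, at 1549 and 575 CPM in control rounds 1 and 2. Injured rounds 1 and 2 were at 1489 and 1390.4 CPM. The control round 1 share kept cells with shared barcodes. Unthinned, the shares were 50.0%, 51.0%, 87.3% and 74.7% in the order given above. In macrophage or monocyte-like cells, which should lack Ccn2, 0 of 31 and 0 of 75 thinned cells had a UMI, which allows up to 9.68% and 4.0% by a limit of 3 counts and 11.2% and 4.80% by the Clopper-Pearson interval. These limits are on cells with a UMI, not on cells that express the gene. Unthinned macrophage shares were 8.11% and 2.27%, at median depths of 3713 and 3234.5 UMIs against 9199 and 5377 in the inner class.

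For Ccn3 in the outer class, 19.6% of 46 thinned cells had a UMI in control round 2 (9.36 to 33.9, 10 cells left out), 18.2% of 22 in injured round 1 (5.19 to 40.3, 19 left out) and 7.46% of 389 in injured round 2 (5.05 to 10.5, 83 left out). Ccn5 shares of the same cells were 2.17%, 9.09% and 16.5%, with intervals of 0.0550 to 11.5, 1.12 to 29.2 and 12.9 to 20.5. Control round 1 had under 20 outer cells at this depth. At 500 UMIs per cell it had 22, and Ccn3 shares were 31.8% and 8.16% in control rounds 1 and 2. Injured rounds 1 and 2 then had 12.5% and 2.91%, so the groups overlapped. Ccn5 was seen at that depth in 0 of 22 and 0 of 49 control cells, 0 of 24 injured round 1 cells and 9.19% of 446 injured round 2 cells. Unthinned, Ccn5 was seen in 9.09% and 16.1% of control and 22.0% and 41.3% of injured outer cells.

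**Figure D2:**
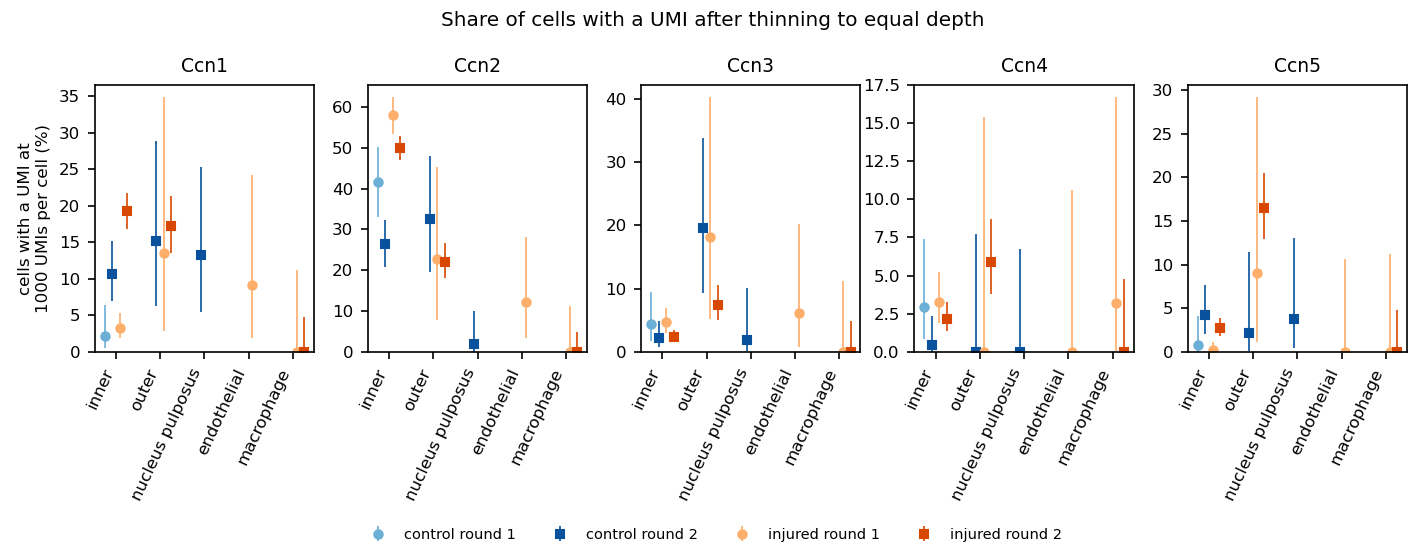
Share of cells with a UMI (%, y axis) for each Ccn gene and cell class after thinning to 1000 UMIs per cell; points are libraries with at least 20 cells left and bars exact 95% binomial intervals. Ccn2 reaches 58.0% in the inner annulus class of injured round 1 and 0 of 75 macrophage or monocyte-like cells of injured round 2.

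Genes with the most similar pattern were ranked by Pearson correlation of log2(CPM + 10) over 31 cluster-by-library sums, among 5957 genes. These points share libraries and differ in depth, so the values describe these sums. For Ccn2 the first genes were Foxc1 (0.92), Spry2 (0.90), P3h2 (0.90), Sdk2 (0.89) and Cdc42ep3 (0.88). Ccn5 was closest to Olfml2b (0.89), Srebf1 (0.72), Mrc2 (0.69), Thbs4 (0.69) and Ntn1 (0.67). Ccn3 was closest to Fbln2 (0.76), Plscr4 (0.74), Lamb2 (0.66), Ppic (0.66) and Ly6c1 (0.65). Ccn4 followed Ncs1 (0.77), Timp1 (0.69), Cgref1 (0.65) and Inpp5a (0.65). Ccn1 followed Ift27 (0.75), Bicc1 (0.74), Gadd45g (0.70) and Pcbp4 (0.70). Between members the values ran from -0.04 (Ccn1 and Ccn4) to 0.59 (Ccn2 and Ccn4), and Ccn1 and Ccn2 were at 0.17.

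The first comparison asked how the members differed between injured and control discs in outer annulus or fibroblast-like cells. Ccn3 was lower and Ccn5 higher in the injured library of both rounds, and Ccn2 was lower in both. Ccn3 averaged 423 ± 175 CPM in control and 145 ± 72.5 CPM in injured libraries (SD, n = 2 each), a log2 fold change of -1.65 ± 0.49 (SE). Ccn5 averaged 32.1 ± 14.5 CPM against 145 ± 83.1 CPM, a log2 fold change of 1.99 ± 0.59. For neither did the groups overlap, as for 47.3% of the 4784 genes tested. By edgeR's quasi-likelihood test with Benjamini-Hochberg adjustment over all genes, neither passed 0.05 (adjusted p = 0.0845 for Ccn3 and 0.0827 for Ccn5), and 3.72% of genes did. With round as a replicate block both passed: Ccn3 fell by 1.66 on the log2 scale (adjusted p = 8.78e-04) and Ccn5 rose by 2.15 (adjusted p = 0.00127), where 11.4% of genes passed. That fit leaves 1 residual degree of freedom per gene, so its p-values rest mostly on spread borrowed from all genes tested. The deviations of the rounds correlated at only 0.19 in this class.

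Ccn2 in the outer class averaged 887 ± 322 CPM in control and 473 ± 139 CPM in injured libraries, a log2 fold change of -0.99 ± 0.44 (adjusted p = 0.283, and 0.0756 with the block). In control round 1, 1 cell held 54 of 102 Ccn2 UMIs. Without the highest cell of each library Ccn2 was at 570.3, 634, 513 and 343 CPM in control round 1, control round 2, injured round 1 and injured round 2. The difference went the other way within the 1 cluster that both round 2 libraries filled: in Myoc and Angptl7 cells Ccn2 was at 691 CPM in control and 1769.5 CPM in injured round 2, a ratio of 2.56 (counting interval 2.19 to 3.00). Assigned by marker score per cell instead of by cluster, the class gave a log2 fold change of 0.54 for Ccn2. Ccn1 averaged 199 ± 18.5 CPM against 159 ± 53.9 CPM and differed by less than the spread between libraries (log2 fold change -0.37 ± 0.45, adjusted p = 0.751). Ccn4 was too low in this class for the filter on low counts. Its pooled ratio of injured to control was 15.8, with a counting interval of 4.32 to 131 around only 2 control UMIs, and 220 of the 226 injured UMIs came from round 2.

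Ccn3 and Ccn5 were also read within clusters. In Myoc and Angptl7 cells of round 2, Ccn3 was at 191 CPM in control and 58.3 CPM in injured discs, a ratio of 0.306 (0.165 to 0.533). Ccn5 in the same cells was at 42.7 and 29.1 CPM, a ratio of 0.682 (0.251 to 1.71), so the higher class level of Ccn5 was not seen in this cluster. In Postn and Cthrc1 cells Ccn5 was at 38.6 and 45.9 CPM in control, from 1 UMI each, and at 89.4 and 228 CPM in injured libraries. Single cells weighed on Ccn3: 1 cell held 19 of 50, 43 of 113, 21 of 57 and 30 of 287 UMIs in control round 1, control round 2, injured round 1 and injured round 2. Without that cell in each library, Ccn3 was at 356, 193, 127 and 84.5 CPM, and the groups still did not overlap. Leaving out injured round 1 gave -2.11 for Ccn3 (adjusted p = 0.00589) and 2.49 for Ccn5 (adjusted p = 7.76e-04), and leaving out injured round 2 gave -1.23 (adjusted p = 0.342) and 1.08 (adjusted p = 0.545). Without control round 1 Ccn3 was at -1.14 (adjusted p = 0.452) and Ccn5 at 1.78 (adjusted p = 0.179), and without control round 2 they were at -2.03 (adjusted p = 0.0948) and 2.72 (adjusted p = 0.183).

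Other lists moved with the groups in these cells, and their part in the Ccn values was not tested. The summed level of 18 cartilage markers was 14550.2 and 14869.7 CPM in control against 11113 and 5411 CPM in injured libraries. That of 8 osteoblast or hypertrophic markers was 29319 and 28942 against 15450.1 and 4261 CPM, with Bglap, the osteocalcin gene, at 0 in all but injured round 2. Macrophage markers summed to little (0, 21.2, 103 and 53.2 CPM in control round 1, control round 2, injured round 1 and injured round 2), with 0, 2, 6 and 11 of 12 seen. The fibroblast markers that define the class were at 41488, 41266, 38144 and 47762 CPM.

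**Figure D3:**
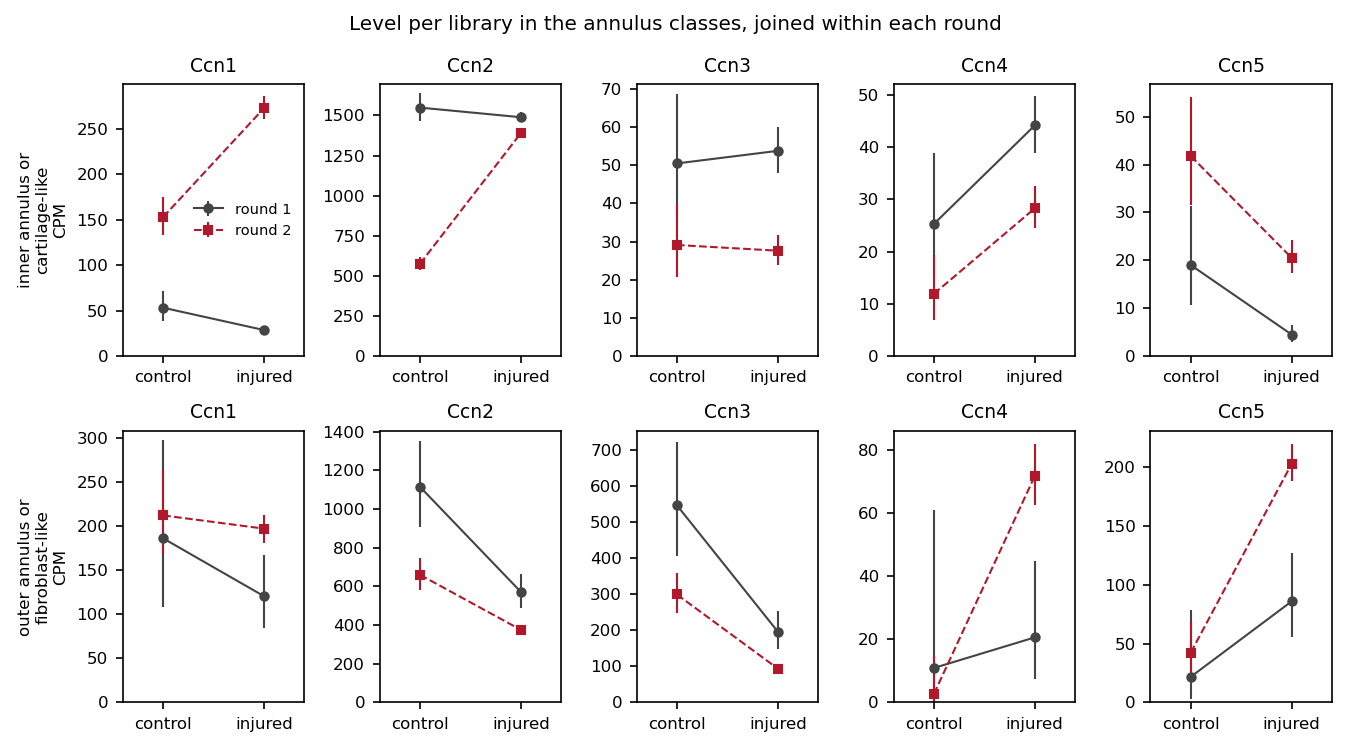
Level of each Ccn gene (CPM, y axis, linear, one scale per panel) in the inner (top) and outer (bottom) annulus class; lines join the control and injured library of each round and bars are exact Poisson 95% intervals. In the outer class Ccn3 goes from 546 to 196 CPM in round 1 and from 299 to 93.6 CPM in round 2, while Ccn5 goes from 21.8 to 86.0 and from 42.4 to 203 CPM.

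In inner annulus or cartilage-like cells, Ccn4 was higher and Ccn5 lower in the injured library of each round, and Ccn2 was higher in round 2 only. Ccn4 averaged 18.6 ± 9.43 CPM in control and 36.2 ± 11.2 CPM in injured libraries (SD, n = 2 each), with a log2 fold change of 1.12 ± 0.49. Ccn5 averaged 30.4 ± 16.1 CPM against 12.5 ± 11.4 CPM, a log2 fold change of -1.09 ± 0.70. The groups overlapped for Ccn5 and not for Ccn4, where 37.8% of 10794 genes did not overlap. By edgeR's test 0 of 5 members passed (adjusted p = 0.652 for Ccn4 and 0.781 for Ccn5), 1 had an unadjusted p under 0.05, DESeq2 called 0, and 0.120% of all genes passed. Leaving out injured round 2 gave -2.70 for Ccn5 (adjusted p = 0.00882), and leaving out injured round 1 gave -0.36 (adjusted p = 0.969). Ccn4 ran from 0.60 without control round 2 (adjusted p = 0.866) to 1.78 without control round 1 (adjusted p = 0.201). With round as a replicate block Ccn4 rose by 1.15 (adjusted p = 0.0305) and Ccn5 fell by 1.18 (adjusted p = 0.0397), where 6.52% of genes passed. Without shared barcodes the blocked values were 1.16 and -1.26, and both still passed.

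Clusters of the inner class did not all follow the class. Over the class, Ccn5 went from 19.0 to 4.47 CPM in round 1 and from 41.8 to 20.5 CPM in round 2. In Grem1 and Ucma cells, the cluster with most of the control round 2 cells, Ccn5 was at 53.2 CPM in control and 67.5 CPM in injured round 2, a ratio of 1.27 (0.575 to 2.53). Ccn4 in Wif1 and Chrdl2 cells of round 1 was at 29.3 and 51.7 CPM, a ratio of 1.76 (0.853 to 3.62).

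Ccn2 averaged 1062 ± 689 CPM in control and 1439.8 ± 70.0 CPM in injured inner class libraries, a log2 fold change of 0.55 ± 0.54 (adjusted p = 0.859). Round 1 gave a ratio of 0.961 and round 2 a ratio of 2.42. Without control round 2 the log2 fold change was -0.02. Ccn2 was also uneven within clusters: Grem1 and Ucma cells of round 2 were at 351 CPM in control and 952 CPM in injured discs (ratio 2.71, 2.21 to 3.31), Saa1 and Lcn2 cells of round 2 were at 1270.3 and 1298 CPM (ratio 1.02, 0.906 to 1.16), and Wif1 and Chrdl2 cells of round 1 were at 1657 and 949 CPM (ratio 0.572, 0.503 to 0.650). Ccn1 (103 ± 70.6 against 151 ± 173 CPM) and Ccn3 (39.8 ± 15.2 against 40.7 ± 18.6 CPM) differed by less than the spread between libraries, with adjusted p = 0.888 and 0.970. Without injured round 2 the Ccn1 log2 fold change was -1.78.

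Markers of the other annulus class moved with injury in these cells too. The summed level of 18 fibroblast markers was 9761 and 5297 CPM in control against 19419.7 and 21492 CPM in injured inner class cells, and cartilage markers were at 18688, 13635, 17572 and 20399.7 CPM in control round 1, control round 2, injured round 1 and injured round 2. Whether they bear on Ccn4 or Ccn5 was not tested.

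Over all cells, which mix cell types in different proportions, Ccn4 was the member with the lowest p-value. Markers of cell types foreign to the disc moved with the groups in these sums: 8 exocrine pancreas markers summed to 2072 and 1377 CPM in control against 31.8 and 3.50 CPM in injured libraries, and 8 B or plasma cell markers to 1228 and 723 against 106 and 3.41 CPM. A cluster of 18 cells led by the pancreatic genes Ctrb1 and Try5 stayed unnamed. The part of these cells in the Ccn values was not tested. Ccn4 was at 23.5, 8.79, 40.6 and 39.6 CPM in control round 1, control round 2, injured round 1 and injured round 2. Its groups did not overlap, as for 37.0% of 11990 genes. Its log2 fold change was 1.44 ± 0.51 (adjusted p = 0.523), and 1.53 ± 0.35 with round as a replicate block (adjusted p = 0.0218). The percentages of all genes passing were 0.117% and 6.14%. By edgeR without the block 0 of 5 members passed, 1 had an unadjusted p under 0.05, and DESeq2 called 0. With the block and without shared barcodes Ccn4 was at 1.51 (adjusted p = 0.0692) and no longer passed. Ccn3 was lower in both injured libraries (94.9 and 76.8 against 60.8 and 46.8 CPM) with a log2 fold change of -0.62 ± 0.35 (adjusted p = 0.762). Ccn1 (129.7, 199.9, 37.3 and 244 CPM), Ccn2 (1278, 499.7, 1327 and 1034 CPM) and Ccn5 (17.9, 36.6, 7.88 and 72.7 CPM) overlapped between groups. For Ccn1, leaving out injured round 2 gave -2.11 (adjusted p = 0.0237) and leaving out injured round 1 gave 0.68.

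**Figure D4:**
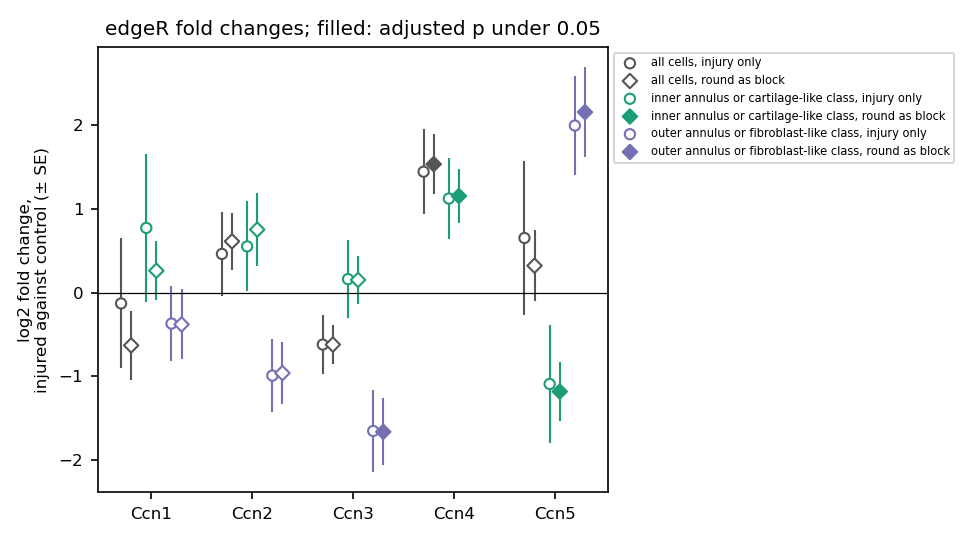
Log2 fold change of injured against control (y axis, ± SE) for each Ccn gene (x axis) over all cells and in the inner and outer annulus classes; circles are fits with injury as the only term, diamonds fits with round as a block, and filled symbols have adjusted p under 0.05. Filled symbols are diamonds only: Ccn4 over all cells (1.53) and in the inner class (1.15), Ccn5 in the inner (-1.18) and outer class (2.15), and Ccn3 in the outer class (-1.66).

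Whether the injury difference itself differed between the outer and inner classes was tested as an interaction on the class sums, with library as a term. Ccn5 was the member that passed: its log2 fold change was 3.40 ± 0.61 higher in the outer class (adjusted p = 0.00487), where 0.800% of 9627 genes passed. The direction was the same in both rounds, with outer ratios of 3.94 and 4.80 and inner ratios of 0.236 and 0.491 in rounds 1 and 2. The injured inner levels were 4.47 and 20.5 CPM, at or below the 9.76 and 20.7 CPM of low-UMI barcodes. The class pattern was not seen in every cluster. In round 2, Ccn5 was not lower in injured Grem1 and Ucma cells and not higher in injured Myoc and Angptl7 cells. DESeq2 gave 3.51 for the interaction (adjusted p = 0.0116). The call was lost without control round 2 (3.48, adjusted p = 0.226) and with classes assigned by marker score (3.20, adjusted p = 0.407). Over the alternatives that left out 1 library, the adjusted p ran from 5.35e-05 to 0.226. Ccn3 (-1.72 ± 0.45, adjusted p = 0.0666) and Ccn2 (-1.64 ± 0.45, adjusted p = 0.0907) were lower in the outer class relative to the inner class without passing. Without control round 1 Ccn2 was at -2.11 and passed (adjusted p = 0.00658), and without control round 2 it was at -1.14 (adjusted p = 0.632). Ccn4 (2.14, adjusted p = 0.674) and Ccn1 (-0.53, adjusted p = 0.952) were far from the threshold.

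Receptors, regulators and target genes of the CCN pathways were read from the same fits, beginning with the outer class, where the median log2 fold change of all genes was 0.01 and 1.78% of all genes tested were higher and 1.94% lower. Among CCN receptors and co-receptors 0 of 8 tested genes were higher and 1 lower: Fgfr2, a growth factor receptor that CCN2 can bind, was at 43.7 and 66.2 CPM in control and 13.8 and 11.1 CPM in injured libraries (log2 fold change -2.37 ± 0.57, adjusted p = 0.0362), and DESeq2 called none of the 8. Itga5, the fibronectin receptor chain, was at 43.7 and 76.8 against 138 and 176 CPM (adjusted p = 0.219). None of 9 YAP, TAZ, TEAD and SRF regulators passed, 0 had an unadjusted p under 0.05 and DESeq2 called 0. Of 12 tested YAP and TAZ targets outside the family 0 passed, 2 had an unadjusted p under 0.05, both lower, and DESeq2 called 0. Over all 4784 genes tested 758 had an unadjusted p under 0.05, and DESeq2 called 124. The median of the 12 targets was -0.49. With the block, where 11.4% of all genes passed, Gadd45a (98.3 and 122 against 51.6 and 19.9 CPM) and Crim1, a BMP-binding membrane protein (65.5 and 66.2 against 27.5 and 19.6 CPM), passed.

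Of 20 TGF-beta response genes in the outer class, 4 were higher and 0 lower (Timp1, Ltbp2, Tnc and Col3a1), with a median of 1.22. Timp1, an inhibitor of matrix proteases, went from 98.3 and 31.8 CPM to 643 and 1776 CPM (log2 fold change 4.40 ± 0.69, adjusted p = 0.00922). Tnc, the tenascin matrix protein, had no UMI in either control library and was at 61.9 and 469.6 CPM in injured libraries. Among 10 SRF and actin cytoskeleton genes Actn1, an actin crosslinker, rose (10.9 and 29.1 to 169 and 203 CPM) and Thbs1, a matricellular activator of TGF-beta, fell (1005 and 1367 to 193 and 280.4 CPM). The 4 tested WNT response genes held 1 higher, Ccnd1, with 3 control UMIs and a pooled ratio of 17.8 (counting interval 6.06 to 86.9), and 1 lower, Myc (175 and 217 to 75.7 and 44.3 CPM). Of 20 immediate early and dissociation genes 0 were higher and 4 lower (Nr4a1, Fos, Junb and Zfp36), with a median of -1.41. Fos went from 1606 and 1367 CPM to 347 and 434 CPM (adjusted p = 0.0179). DESeq2 called 3 TGF-beta response genes, 2 SRF and actin genes, 1 WNT response gene and 4 immediate early genes in this class. It called 124 of all 4784 genes tested there. With the block, where 5.10% of all genes were higher and 6.29% lower, 10 TGF-beta response genes were higher and 0 lower, 6 SRF and actin genes were higher and 1 lower, and 0 immediate early genes were higher and 17 lower. Ccn1 and Ccn2 belong to the genes that respond to the same stimuli, and the part of these genes in the Ccn values was not tested.

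In the inner class 0 of 104 tested genes of the lists passed by edgeR, 19 had an unadjusted p under 0.05 (14 higher and 5 lower), and DESeq2 called 6, all TGF-beta response genes. Over all 10794 genes, 806 had an unadjusted p under 0.05 and DESeq2 called 99. Ltbp2, a matrix protein that binds fibrillin, was at 25.3 and 38.8 CPM in control and 146 and 170.0 CPM in injured libraries (log2 fold change 2.44 ± 0.40, adjusted p = 0.107). With the block, where 3.45% of all genes were higher and 3.08% lower, 7 of 19 TGF-beta response genes were higher and 0 lower. Of 9 WNT response genes in that fit, 1 was higher (Nkd2) and 3 were lower (Myc, Notum and Wif1). Notum and Wif1 encode secreted WNT inhibitors, and Wif1 was at 644 and 453 CPM in control against 173 and 195 CPM in injured libraries. Of 20 immediate early and dissociation genes 1 was higher (Ier3) and 3 were lower (Nr4a1, Fos and Egr1). Flna, an actin crosslinker, was the 1 of 11 SRF and actin cytoskeleton genes that passed, and was higher. Fgfr2 was the 1 of 10 receptors that passed (80.9 and 188 against 45.2 and 70.2 CPM), and Nt5e, an ectoenzyme that makes adenosine, was the 1 of 19 YAP and TAZ targets (142 and 196 against 344 and 378 CPM). Over all cells 0 of 117 tested genes of the lists passed by edgeR, 26 had an unadjusted p under 0.05 and DESeq2 called 7, where 948 and 181 of all 11990 genes did. With the block, where 2.73% of all genes were higher and 3.41% lower, 8 of 20 TGF-beta response genes were higher and 0 lower, and 1 of 20 immediate early genes was higher and 10 lower. In that fit 2 of 23 YAP and TAZ targets were higher and 2 lower, and 2 of 11 WNT response genes were higher and 3 lower.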

How the data were processed

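The deposited values are UMI counts per gene and barcode, produced by the authors' Cell Ranger runs against mm10, per the submitters' processing notes; per the file headers, control round 1 was made with version 6.0.0 and the others with version 4. The control round 1 matrix lists only barcodes with at least 502 UMIs, the others also near-empty ones. The CCN members, the gene lists and the marker lists were chosen with earlier results of these data known.

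Cells were barcodes with at least 250 genes. The 2000 most variable genes without Ccn genes, 30 principal components and 20 neighbours entered Leiden clustering (leidenalg 0.10.2) at resolution 1. A cluster was named by its most detected markers (at least 3, each in at least 25% of cells and 1.2 times the mean of other cells). It stayed unnamed where its leading genes spoke for another class or, a rule added after the data were seen, where over 50% of its control round 1 barcodes were shared with injured round 1 at similar UMI numbers. Names were rebuilt here and can differ from those of the authors. No doublets were removed.

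Counts were summed per library and tested two-sided with edgeR 4.0.16 (R 4.3.3), TMM and its default low-count filter, with no term but injury. Benjamini-Hochberg adjusted p-values, taken over all genes tested, were read at 0.05. The interaction fit had library as a term. DESeq2 1.42.0 was an alternative. The test script was tested on simulated data with 200 changed genes. Control and injured libraries of a round are from the same animals per the labels, so the rounds pair the libraries by design. Deviations of the rounds correlated at 0.60 over all cells and at 0.60 for the inner class, with shared round 1 barcodes kept. In the outer class they correlated at only 0.19, which gives little support for pairing there. A fit with round as a replicate block is given where it changes a call. Nothing in the labels says that the rounds used separate animals, so p-values refer to the spread between these libraries only. edgeR's test draws much of each gene's spread from all genes tested, so a p-value does not measure that gene's own spread alone. The members are always named; for each member the 5 genes of most similar pattern were named, of which some are not reported here, and up to 3 genes of lowest p per pathway list. The pathway genes named from the blocked fit and the single clusters were chosen after their values were seen.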

Additional observations from a re-analysis of the deposited data

Results flagged for a closer look

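The injury difference of Ccn5 itself differed between cell classes by a test of that difference: its log2 fold change was 3.40 higher in outer annulus or fibroblast-like cells than in inner annulus or cartilage-like cells. The difference was of similar size without control round 2 (3.48) and with classes assigned by marker score (3.20), but no longer passed the threshold of edgeR's adjusted p (0.226 and 0.407). Injured inner class levels of Ccn5 lay at or below those of low-UMI barcodes. Clusters of different leading genes filled the classes in control and injured libraries, and their part in the difference was not tested.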

How the results depend on the processing

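With round as a replicate block, Ccn4 was at 1.53 over all cells and 1.15 in the inner class, Ccn5 at -1.18 (inner) and 2.15 (outer class), and Ccn3 at -1.66 in the outer class, each then past the threshold; the block changed no other call of a member. The paired fit without shared round 1 barcodes, chosen after seeing the data, gave 1.16, -1.26, 2.15 and -1.67 for the last 4 in class order, and 1.51 for Ccn4 over all cells, which no longer passed (edgeR adjusted p = 0.0692). Counts of called genes over all cells (14) became 736 with the block, 413 with block and without shared barcodes, 181 with DESeq2, 378 with no low-count filter, 2 without shared barcodes, 30 with a common UMI minimum and 0 (902 at unadjusted p under 0.05) at 500 genes per cell, where Ccn1 turned to 0.01. Inner class counts (13) became 704, 851, 99 and 192 for the first 4 of these, and 0 (594 unadjusted) with classes by marker score. Outer class counts (178) became 545 and 494 for the block without and with shared barcodes left out, 331 with no low-count filter, 82 at resolution 2 and 6 by marker score. Interaction counts (77) became 37 with DESeq2, 146 with no low-count filter and 2 by marker score.

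Outer class Ccn4 was too low for the filter in the main fit. With no low-count filter it was at 3.59 and outer class Ccn5 at 2.15, both past the threshold. The interactions of Ccn2 (-1.65) and Ccn3 (-1.73) also passed in that setting. Inner class values by marker score were 0.19 for Ccn1, 1.22 for Ccn2, 0.78 for Ccn3 and 1.78 for Ccn4, none past the threshold. Outer class Ccn1 turned to 0.02 at resolution 2 and 0.17 by marker score, and Ccn2 to 0.54 by marker score. The Ccn1 interaction turned to 0.02 and 0.60 in those settings, and that of Ccn5 was 3.20 and not past the threshold by marker score. The cause was not tested for any of these.

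Leaving out 1 library at a time gave log2 fold changes over all cells of -2.11 to 0.68 for Ccn1, -0.06 to 1.34 for Ccn2, -0.77 to -0.42 for Ccn3, 0.83 to 2.29 for Ccn4 and -1.78 to 1.51 for Ccn5, with 126 to 273 called genes. In the inner class the ranges were -1.78 to 1.64, -0.02 to 1.51, -0.30 to 0.65, 0.60 to 1.78 and -2.70 to -0.36 in the same order, with 1 to 200 called genes. In the outer class, where Ccn4 could not be fitted without injured round 2, they were -0.89 to -0.01, -1.32 to -0.54, -2.11 to -1.14, 2.18 to 4.20 and 1.08 to 2.72, with 51 to 514 called genes. Interaction values were -1.62 to 1.00, -2.11 to -1.14, -1.82 to -1.59, 0.53 to 2.92 and 3.03 to 4.04, with 9 to 159 called genes. A lone library was assumed to vary like the other group. Outer class Ccn4 passed the low-count filter in few settings. It was at 4.20 without control round 1, 4.02 without injured round 1 and 2.18 without control round 2. With classes by marker score and all 4 libraries it was at 2.90 and did not pass the threshold (edgeR adjusted p = 0.216).

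Few cells and UMIs limit the outer class: control round 1 had 22 such cells, and Ccn4 had 2 UMIs over both control libraries of that class.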

Other observations

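Ccn1 was also found in unnamed clusters of low UMIs, mostly of control round 2. A cluster led by Krt18 and Epcam had 51 Ccn1 UMIs in 64 control round 2 cells, or 1545 CPM (1150.4 to 2032), with a UMI in 57.8% of cells, and all of its control round 1 barcodes were shared with injured round 1 at similar UMI numbers. The Ccl11 and Dpep1 cluster had 635 CPM of Ccn1 in control round 2 and 34.0 CPM of Ccn2. Low-UMI barcodes of that library had 43.1 CPM of Ccn1 and 82.7 CPM of Ccn2. The Igkc and Jchain cluster, led by antibody genes, had no UMI of any member in 37 control round 2 cells.

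In a cluster led by Pi16 and Ptx3, 42 control round 2 cells had 442 CPM of Ccn3 (221 to 791), from 11 UMIs, against 12.8 CPM in low-UMI barcodes. This cluster and that of Ccl11 and Dpep1 matched the fibroblast list best, with 6 and 4 of 18 markers. Both stayed unnamed by the rule on shared barcodes. They held 42 and 224 control round 2 cells outside the outer class, which had 56 there. Their part in the outer class values was not tested. Mural-like cells, the contractile cells around small vessels, numbered 14 and 17 in the injured libraries. They had 246 and 235 CPM of Ccn1 from 22 and 13 UMIs, and 224 and 36.1 CPM of Ccn3 from 20 and 2 UMIs. In an unnamed cluster led by mitochondrial genes, with a median of 21.9% mitochondrial UMIs per cell, Ccn2 was at 198 and 431 CPM in control and 372 and 523 CPM in injured libraries.

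With a pseudocount of 1 in place of 10, Olfml2b stayed the gene most like Ccn5 (0.88), Spry2 came first for Ccn2 (0.94), and Ift27 stayed first for Ccn1 (0.82). The correlation of Ccn2 with Ccn4 was then 0.66 and that of Ccn1 with Ccn2 was 0.31.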
